A study of Mus musculus with 18 samples.

Results

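The regions described here were stretches of mouse autosomes that carried a DNA methylation peak in at least 1 library and lay in a zinc finger protein gene. Peaks of all 18 lists were merged where they shared at least 1 base, and a merged region was kept where it overlapped the span of a protein-coding gene whose symbol is Zfp followed by a digit. The rule kept 1090 of the 148111 autosomal merged regions, out of 152196 on all chromosomes. The label was taken from gene symbols alone, so the 388 autosomal Zfp genes hold proteins with different kinds of zinc finger, and 13 of the regions also overlapped another protein-coding gene.

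Many Zfp genes encode proteins in which an array of zinc fingers, usually encoded together in the final exon, reads a DNA sequence, and in which a KRAB domain recruits the corepressor Trim28 and the histone methyltransferase Setdb1. Proteins of this kind silence transposable elements, and a few of them keep DNA methylation at imprinted loci through early development. The genes lie in clusters that arose by local duplication, so that neighbours can be close copies of each other. Other Zfp genes encode unrelated proteins, such as the CCCH-type mRNA-binding protein Zfp36.

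The libraries were made by methylated DNA immunoprecipitation and sequencing (MeDIP-seq), in which an antibody against 5-methylcytosine enriches methylated fragments, from myocardial tissue of male C57BL/6JR mice aged 12 weeks. A sham group was operated on without ligation of the coronary artery, and the mice with myocardial infarction (MI), caused by ligating the left anterior descending coronary artery, were sampled 10 min, 1 h or 6 h later, or after 24 h or 72 h. Each of the 6 groups held 3 mice with 1 library each, and all MI groups were set against the same 3 sham libraries. The labels name the cells as cardiomyocytes but describe no isolation of them, and a peak list shows no gene expression by which the cell type could be checked.

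A peak marks where methylated fragments were enriched, not what share of DNA copies was methylated. In tissue that holds several cell types, a change in methylation and a change in the mix of cells cannot be told apart. The peak lists held 34255 to 60653 peaks per library, and the deposited score of a peak was at least 50 in every list. Sequencing depth is unknown, because the lists hold no read counts.

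Promoter sequences are shown first for 5 genes that the results below turn on. They are the RefSeq windows from 250 bases before to 50 bases after a transcript start, on GRCm38.p6, written 5′ to 3′ on the gene's strand, with each CG, the dinucleotide in which mouse DNA is mostly methylated, in capitals.
Zfp652, chr11:95748817-95749116, plus strand: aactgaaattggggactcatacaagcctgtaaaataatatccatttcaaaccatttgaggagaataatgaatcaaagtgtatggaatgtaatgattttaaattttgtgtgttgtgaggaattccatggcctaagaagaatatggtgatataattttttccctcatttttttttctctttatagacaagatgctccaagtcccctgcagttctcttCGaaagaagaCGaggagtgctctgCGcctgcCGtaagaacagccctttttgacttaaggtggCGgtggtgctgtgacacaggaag
Zfp2, chr11:50916127-50916426, minus strand: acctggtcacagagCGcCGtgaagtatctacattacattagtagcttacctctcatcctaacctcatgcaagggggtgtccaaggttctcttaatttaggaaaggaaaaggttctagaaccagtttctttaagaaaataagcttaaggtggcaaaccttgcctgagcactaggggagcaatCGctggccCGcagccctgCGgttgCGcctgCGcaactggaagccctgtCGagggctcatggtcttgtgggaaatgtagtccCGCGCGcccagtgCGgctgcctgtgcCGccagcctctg
Zfp57, chr17:37000913-37001212, plus strand: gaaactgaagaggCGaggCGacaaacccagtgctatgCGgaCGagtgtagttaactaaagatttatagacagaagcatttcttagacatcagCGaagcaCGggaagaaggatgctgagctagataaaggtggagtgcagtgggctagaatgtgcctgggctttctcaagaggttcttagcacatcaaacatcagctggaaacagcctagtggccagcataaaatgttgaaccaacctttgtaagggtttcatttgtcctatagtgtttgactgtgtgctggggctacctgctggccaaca
Zfp42, chr8:43306960-43307259, minus strand: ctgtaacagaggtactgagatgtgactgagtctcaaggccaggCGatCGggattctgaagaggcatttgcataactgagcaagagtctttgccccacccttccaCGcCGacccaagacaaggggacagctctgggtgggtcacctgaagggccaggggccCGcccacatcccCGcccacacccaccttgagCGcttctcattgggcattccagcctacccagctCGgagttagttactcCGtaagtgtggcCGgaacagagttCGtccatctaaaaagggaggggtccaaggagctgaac
Zfp36, chr7:28379179-28379478, minus strand: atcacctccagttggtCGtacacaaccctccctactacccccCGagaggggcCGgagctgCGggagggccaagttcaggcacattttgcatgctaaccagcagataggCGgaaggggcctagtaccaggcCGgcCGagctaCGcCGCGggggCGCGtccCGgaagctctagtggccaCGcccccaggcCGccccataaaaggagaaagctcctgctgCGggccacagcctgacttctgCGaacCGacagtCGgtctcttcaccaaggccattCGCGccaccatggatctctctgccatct
The Zfp652 and Zfp2 windows are shown because they carried a peak in more libraries than any other Zfp promoter, and Zfp57 because its product protects imprints. Zfp42 is shown because a strong region sat at the other end of its gene while its promoter had no peak, and Zfp36 because no library had a peak anywhere in it. The windows hold 5 CGs for Zfp652, 13 for Zfp2, 6 for Zfp57, 11 for Zfp42 and 21 for Zfp36. A peak overlapped the Zfp652 window in 5 libraries, the Zfp2 window in 4 and the Zfp57 window in 1, which was at 72 h.

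Promoters of Zfp genes were seldom covered by a peak. RefSeq promoter windows were matched for 325 of the 388 genes, with 394 windows in all. A peak in any library touched 14 of them, or 3.55%, against 6.09% of 19691 windows at other protein-coding genes. Per library the share of Zfp windows with a peak was 0.381% ± 0.317 (SD, n = 18), against 1.69% at the other genes, and it was lower in 18 of 18 libraries. The CG motif itself was present in 99.7% of the Zfp windows and 95.5% of the others, with a median of 14 per window in both. The 14 Zfp windows that carried a peak had a median of 7 CGs, and the 1199 such windows at other genes a median of 6. Zfp111, with 1 CG, and Zfp30, with 9, had a peak in 3 libraries each, Zfp936 and Zfp518a in 2, and the other 8 in 1. The Zfp518a window, with 35 CGs, stood apart in CG number, and both of its libraries were from 72 h.

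Within the gene, peaks were more frequent at the far end, where the transcript stops, than at the start, for Zfp and other genes alike. The plot of peaks around both gene ends covers 280 Zfp genes and 10269 other genes of known strand that were at least 10000 bases long. From 2 to 1 kb before the far end, 11.3% of Zfp genes carried a peak in a mean library, against 8.75% of other genes, a difference of 2.58 ± 1.30 percentage points (SD, n = 18) that was positive in 17 of 18 libraries. From 3 to 2 kb before the far end the values were 10.4% and 8.18%, with Zfp genes higher in 17 of 18 libraries. In the last 1 kb the levels were 7.004% and 7.06%, and Zfp genes were higher in 7 libraries only.

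Around the start the order of the gene groups changed with distance. In each 1 kb window from 5 kb before the start to 1 kb after it, the mean of Zfp genes was the higher, by 0.279 to 0.601 percentage points, but in only 12 to 14 of 18 libraries. Inside the gene the order turned. From 2 to 3 kb after the start, 2.76% of Zfp genes carried a peak against 4.48% of other genes, and Zfp genes were lower in 18 of 18 libraries. From 3 to 4 kb the shares were 3.29% and 4.93%, again lower in 18 of 18. Beyond the gene, from 2 to 3 kb after the far end, Zfp genes were at 2.82% and other genes at 4.29%, lower in 18 of 18 libraries. Zfp genes thus fell from 11.3% at 2 to 1 kb before the far end to 2.82% at 2 to 3 kb after it. Other genes fell from 8.75% to 4.29% between the same windows. Across the end itself the gene groups were closer, from 7.004% to 3.99% in Zfp genes and from 7.06% to 4.61% in others. From 4 to 5 kb after the end the values were 5.50% and 5.31%, with Zfp genes higher in 10 of 18 libraries.

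**Figure D1:**
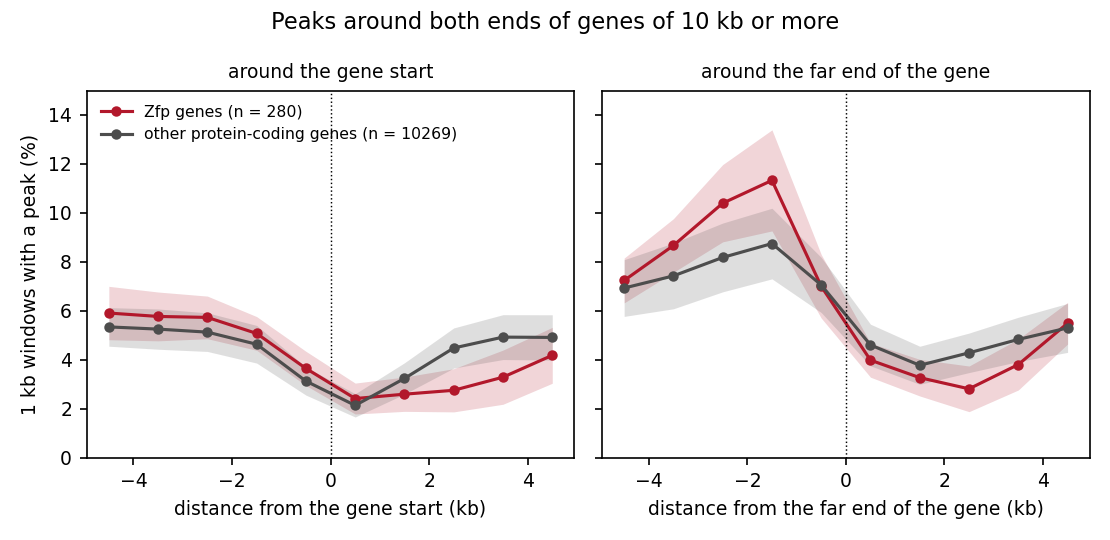
Share of genes with a peak in each 1 kb window (y axis, percent) by distance from the gene start or the far end (x axis, kb, positive in the direction of transcription), for 280 Zfp genes and 10269 other protein-coding genes. Lines are means of 18 libraries and bands are ± SD. Zfp genes reach 11.3% from 2 to 1 kb before the far end and stay below the other genes from 2 to 4 kb after the start.

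The excess depended on the window and on which genes were long enough to hold it. In windows of 1000 bases at the ends of 322 Zfp genes that hold at least 3 such windows, a peak was present in 2.23% ± 0.676 at the start, 5.94% ± 1.10 in the middle and 9.04% ± 1.53 at the far end (SD, n = 18). The same windows of 13652 other genes gave 2.56%, 6.16% and 7.26%. The Zfp value was higher at the far end in 18 of 18 libraries, and at the start in 6. With 500 bases the far end stood at 6.17% against 5.17% and Zfp genes were higher in 14 libraries, whereas with 5000 bases it stood at 19.2% against 20.5% and Zfp genes were higher in only 6. The far end exceeded the start in 18 of 18 libraries for both kinds of gene at all 3 window sizes. The lists do not give exons, so whether these regions lie on the exon of the finger array was not tested.

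Counted as regions, 769 of the 1090 lay in genes of known strand. Of these, 12 lay over the start, 222 in the first 1 of 3 equal parts of the gene, 248 in the middle part, 254 in the last part and 33 over the far end. The last part and far end together held 37.3% of them, so most lay elsewhere, and no such counts are given for other genes. Among the regions found in all 18 libraries the share was 50.8% (31 of 61), and among those found in 1 library it was 35.3% (72 of 204). These shares describe the regions and carry no test.

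Zfp42, also called Rex1, a marker of pluripotent stem cells, had a far-end region in every library. The gene spans chr8:43295067-43307009 on the minus strand, and a region of 1758 bases (chr8:43295270-43297027) was centred 1082 bases before the far end. The sham libraries scored 201.81, 227.85 and 195.87 there, those of 10 min 187.22, 192.46 and 236.83, and those of 1 h 224.38, 146.93 and 214.55. The 6 h group followed with 185.12, 213.86 and 174.39, the 24 h group with 233.37, 176.67 and 203.54, and the 72 h group with 242.58, 197.34 and 168.28. All 6 groups overlapped. A second Zfp42 region in the first part of the gene had a peak in 9 libraries, with a mean score of 70.3, and none reached the promoter window printed above. Peaks covered 18.03% of the Zfp42 span in the mean library.

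Zfp180 and Zfp27, cluster members on chromosome 7, had stronger far-end regions, also in all 18 libraries. The Zfp180 region (chr7:24104186-24107092, 2907 bases) was centred 2070.5 bases before the far end and scored 279 ± 52.1 (SD, n = 18). The Zfp27 region (chr7:29893871-29896441, 2571 bases), picked after its values were seen, was centred 1825.5 bases before the far end and scored 223 ± 31.7. Their scores overlapped across all groups, as they ran from 209.44 to 411.7 for Zfp180 and from 164.18 to 273.94 for Zfp27. The third-widest Zfp region, 5866 bases in Zfp790 (chr7:29824552-29830417), also lay in the last part of its gene and in all 18 libraries, at a lower mean score of 104.

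Zfp genes were more densely covered by peaks than other genes in every mouse. Peaks covered 3.29% ± 0.369 (SD, n = 18) of the 13.05 Mb of Zfp gene span and 2.33% ± 0.331 of the 971 Mb of other protein-coding span, a ratio of 1.41. The difference was 0.964 ± 0.10 percentage points, ran from 0.800 to 1.13, and was positive in 18 of 18 libraries. A paired permutation test over libraries, two-sided, gave p = 2e-05, where 1e-05 is the smallest that 100000 sign flips can give. That test covers the spread between mice with the genes held fixed. Weighting other genes by chromosome as the Zfp genes are gave a difference of 0.929. Leaving out the cluster of near copies from Zfp992 to Zfp933 on chromosome 4 gave 0.839. Zfp600, which lies near that cluster but outside it, stayed in. Base composition of the gene bodies was not analysed here.

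The peaks themselves were also somewhat higher and wider. The median score of a Zfp peak was 75.05 in the mean library against 69.6 at other genes, a difference of 5.41 ± 2.07 (SD, n = 18). The median width was 1028 bases against 961, a difference of 67.4 ± 20.5 bases. Both differences had the same sign in 18 of 18 libraries. Of the Zfp regions, 34.6% had a peak in the mean library, against 29.5% of regions at other genes.

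**Figure D2:**
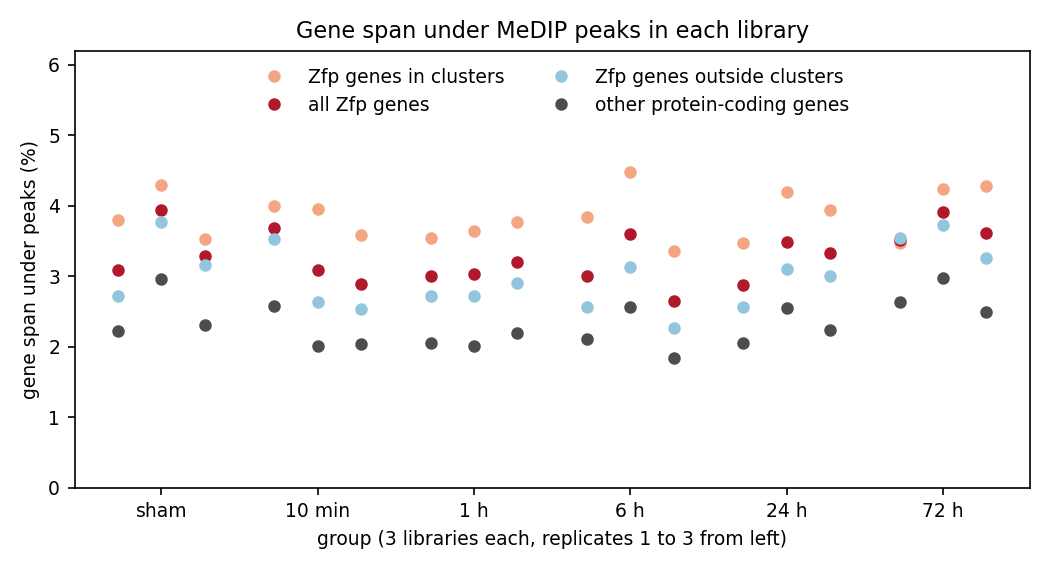
Percent of gene span under peaks (y axis) in each of the 18 libraries, by group (x axis), with 1 point per library for all Zfp genes, Zfp genes in clusters, Zfp genes outside clusters and other protein-coding genes. All Zfp genes together lie above other genes in 18 of 18 libraries, and clustered genes lie above lone ones in 17 of 18.

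Recurrence over the libraries was higher than elsewhere at the top end. A peak in all 18 libraries was present in 87 Zfp regions, or 7.98%, against 3.48% of the 73662 regions at other protein-coding genes and 5.08% of all autosomal regions. Without the chromosome 4 cluster it was 71 of 1012, or 7.02%. At the bottom end, 281 Zfp regions (25.8%) had a peak in a single library, against 29.7% at other genes. A Zfp region was found in a median of 4 libraries, and 321 (29.4%) in 9 or more. By group, 293 regions (26.9%) had a peak in all 6 groups and 300 (27.5%) in 1 group only. The 300 include the 281 found in a single library, which can lie in 1 group only. The same shares by group were not counted for other regions. No mean score or library count is a measure of methylation level, since a region without a listed peak may still hold methylated DNA below the score of 50.

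**Figure D3:**
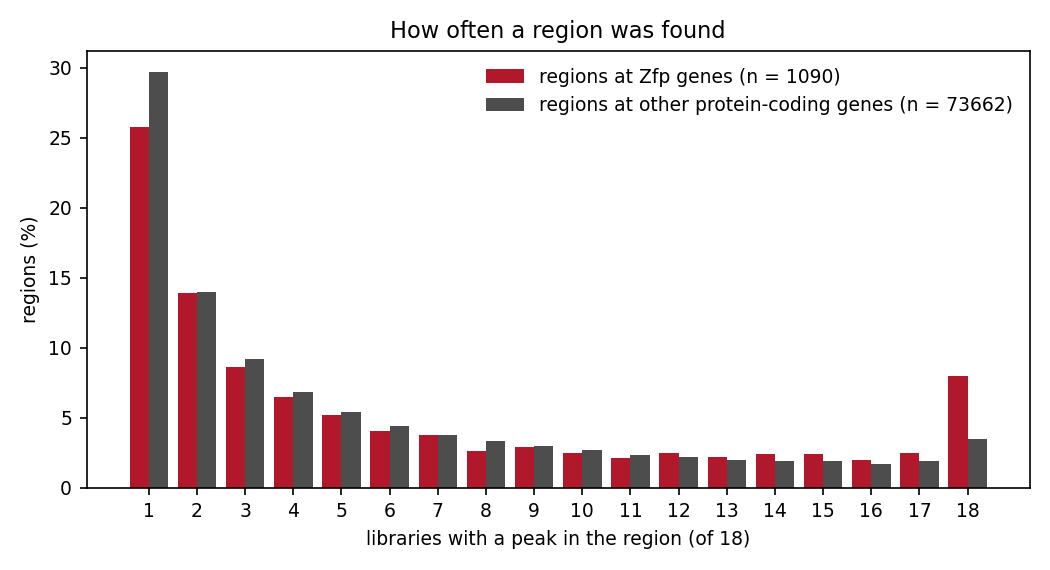
Percent of regions (y axis) by the number of libraries with a peak in them (x axis, 1 to 18), for 1090 regions at Zfp genes and 73662 at other protein-coding genes. Zfp regions are fewer at 1 library (25.8% against 29.7%) and more at 18 (7.98% against 3.48%).

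The 87 constant regions lay in 68 genes. The highest mean score was that of a region in Zfp600 on chromosome 4 (chr4:146167130-146168802), at 440 ± 85.0 (SD, n = 18), with a range over libraries from 323.98 to 597.69. It lay in the first part of its gene, centred 30790.5 bases before the far end. Zfp180 followed at 279 and a Zfp978 region (chr4:147358919-147360628) at 264 ± 55.0. Regions in Zfp704 (chr3:9501167-9503189) and Zfp706 (chr15:36995121-36997649) scored 256 ± 57.4 and 239 ± 45.4, and a region shared by Zfp978 and Zfp991 scored 230 ± 42.9. Zfp704 and Zfp706 lie outside clusters. Most of the Zfp706 region lies outside the gene, whose span begins at chr15:36997027, so its score does not belong to the gene alone. The values of Zfp600, Zfp978 and Zfp991 are uncertain, because genes of that stretch of chromosome 4 are close copies and how reads with several matches were placed is not given in the sources used here.

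Of the 388 genes, 325 carried at least 1 region, 132 carried exactly 1, and 63 had none. The genes with none had a median length of 14395 bases and those with a region 19756. The most regions lay in Zfp536 (50), Zfp407 (36), Zfp385b (35), Zfp993 (30), Zfp978 and Zfp423 (29 each), and Zfp469 and Zfp827 (23 each), which together held 255 of the 1090. All 8 are long, from 166283 bases for Zfp827 to 478623 for Zfp993. Per 10 kb they held 0.627 regions for Zfp993 to 1.38 for Zfp827. Short genes lay on both sides of these values, with 1.67 for Zfp42 and 0 for Zfp36. Zfp747, picked after its values were seen, had the largest covered share of its span, 45.3% in the mean library, with 1 region in all 18 libraries across a gene of 3514 bases.

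Zfp536, a regulator of neural differentiation, had peaks in 16 of its 50 regions in the mean sham library and in 12.3 to 18.7 at the MI times, and 2 of its regions were found in all 18 libraries. Zfp423, a regulator of adipocyte and neural precursors, had a mean of 12 regions with a peak in the sham libraries. The 10 min libraries had 6, those of 1 h had 9, those of 6 h again 6, and the 24 h and 72 h libraries 9.33 and 13. Zfp407 ran from 9.33 at 24 h to 12 in sham. Zfp521, a transcriptional cofactor of blood and neural progenitors, ran from 4 at 6 h to 6.67 at 72 h. The part of list length in these means was not tested.

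Genes with a known part in silencing held 2 to 5 regions each. Zfp57 (chr17:37001163-37010729) had 2 regions, 1 over its start in 1 library at 72 h, shown above, and 1 over its far end (chr17:37009433-37010746), which it shares with Mog, in 11 libraries. Those 11 were 3 of the 10 min group, 2 each of the sham, 1 h and 72 h groups, and 1 each of the 6 h and 24 h groups. Zfp445, which also acts at imprints, had 4 regions, the most frequent of them in 14 libraries. Zfp568, which represses a placental transcript of Igf2, had 5 regions and at most 8 libraries. Zfp809, which silences retroviral DNA, had 2 regions and at most 5 libraries. None of these 4 genes had a region in all 18 libraries, as was the case for all but 68 of the 388 Zfp genes.

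Among the genes of other function, those of the mRNA-decay family Zfp36, Zfp36l1 and Zfp36l2 and the GC-binding factor Zfp281 had no region in any library. These 4 genes are short, 2445 bases for Zfp36 to 5491 for Zfp281, and Zfp36 holds the CG-rich promoter printed above. Zfp148, which binds GC-rich DNA as Zfp281 does, had 5 regions over 123129 bases, 1 of them in 17 libraries. Zfp143, an activator at many gene promoters, had 4 regions with at most 16 libraries. Zfp106, an RNA-binding protein needed in nerve and muscle, had 8 regions, and 1 of them, in the first part of the gene (chr2:120548842-120551995), was in all 18. Zfp260, a regulator of cardiac genes, had 2 regions and at most 7 libraries. Zfp335, a chromatin regulator, had 4 and at most 2 libraries. Zfp638 and Zfp804a had 2 each, Zfp516 had 12 and Zfp462, a chromatin factor, had 16, the most frequent of which was in 16 libraries.

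Clustered genes were more densely covered than lone ones, but clusters differed widely. Zfp genes no more than 250000 bases apart, at least 3 together, formed 29 clusters with 202 genes and 370 regions, and 186 lone genes held 720 regions. Peaks covered 3.86% of clustered span and 2.99% of lone span, a difference of 0.862 ± 0.371 percentage points (SD, n = 18). It was positive in 17 of 18 libraries and stood at -0.0679 in replicate 1 of the 72 h group. The paired permutation test over libraries, two-sided, gave p = 2e-05. It covers the spread between mice with the genes held fixed, not the spread between clusters. The clusters of 23 and of 18 genes lay below the lone level, at 1.56% and 0.677%. Without the chromosome 4 cluster from Zfp992 to Zfp933 the difference was 0.595, with p = 5e-05 by the same permutation test. Zfp600, near that cluster but outside it, counted as lone.

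**Figure D4:**
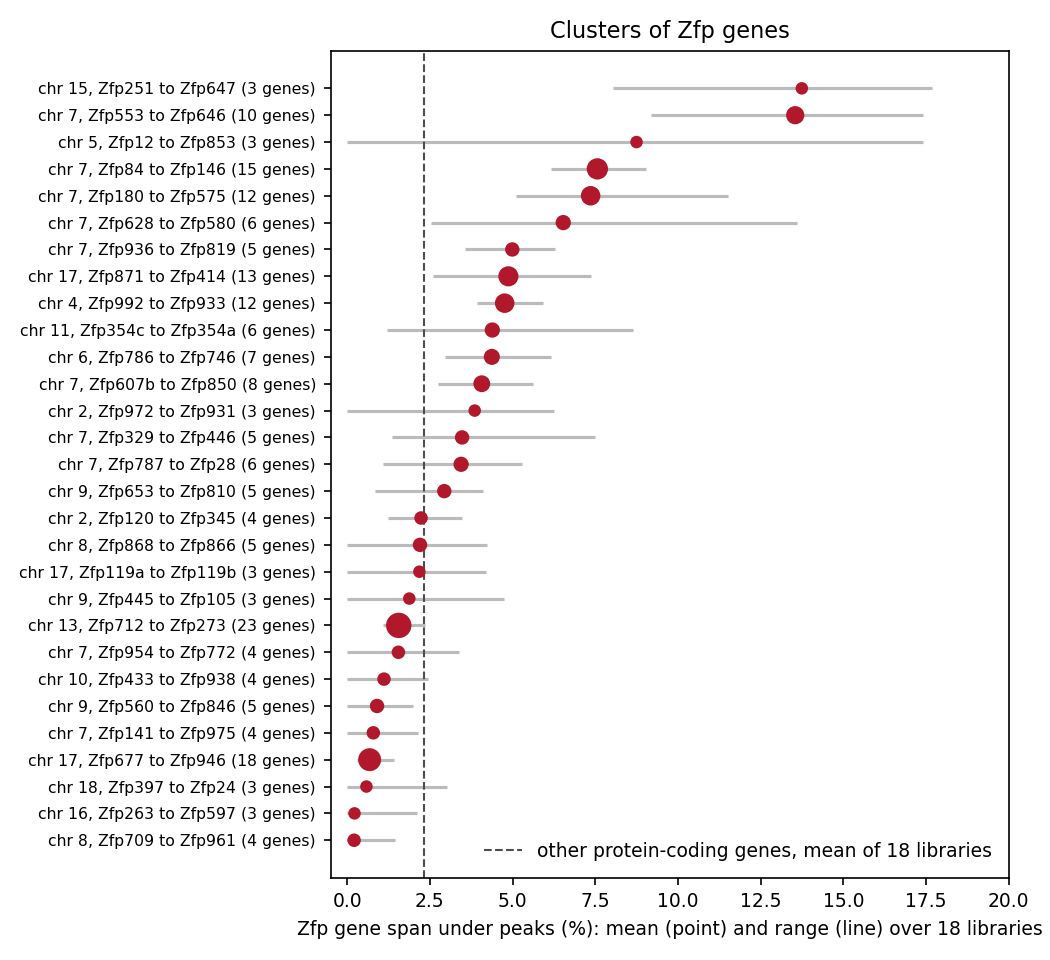
Percent of Zfp gene span under peaks (x axis) in each of 29 clusters (y axis, named by chromosome, first and last gene, and number of genes), where points are means and lines the range over 18 libraries, with larger points for more genes. The dashed line marks other protein-coding genes at 2.33%, and cluster means run from 0.208% to 13.7%.

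The largest cluster, 23 genes from Zfp712 to Zfp273 on chromosome 13, had 1.56% ± 0.390 (SD, n = 18) of its gene span under peaks. The 18 genes from Zfp677 to Zfp946 on chromosome 17 had 0.677% ± 0.286, and no library reached the 2.33% of other genes, as the highest was 1.41%. Clusters of chromosome 7 lay at both ends of the range. The 4 genes from Zfp141 to Zfp975 had 0.788% ± 0.589 and the 4 from Zfp954 to Zfp772 1.55% ± 1.19. The 15 genes from Zfp84 to Zfp146 had 7.56% ± 0.739, with a lowest library of 6.16%, and the 10 genes from Zfp553 to Zfp646 had 13.5% ± 2.41. The 13 genes from Zfp871 to Zfp414 on chromosome 17 had 4.87% ± 1.05. On chromosomes 7 and 17 alike, clusters thus lay on both sides of the level of other genes.

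The highest mean was 13.7% ± 2.63, in the 3 genes from Zfp251 to Zfp647 on chromosome 15, and the lowest 0.208% ± 0.487, in the 4 genes from Zfp709 to Zfp961 on chromosome 8. The cluster from Zfp992 to Zfp933 on chromosome 4, with 12 genes, held 78 regions, the most of any cluster, and 16 of the 87 constant ones. Its gene span was covered to 4.76% ± 0.502, with the same doubt about close copies as above. The 2 widest Zfp regions, 7690 and 5994 bases in Zfp978, lay there too, and the wider of them had a peak in 3 libraries only.

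Over the time course, the number of Zfp regions with a peak differed between groups by no more than the spread allowed. The sham libraries had 380, 460 and 353, the 10 min group 420, 316 and 342, and the 1 h group 357, 354 and 364. The 6 h group had 347, 395 and 261, the 24 h group 348, 403 and 377, and the 72 h group 458, 456 and 406. The sham libraries overlapped every MI group. All 3 libraries at 72 h were above all libraries at 1 h, 6 h and 24 h. Their lists held 58992, 60653 and 48608 peaks, and the longest lists at 6 h and 24 h held 50535 and 51063. The lowest 72 h count was 406 (replicate 3) and the highest 24 h count 403 (replicate 2). At other genes these libraries had a peak in 30.3% and 31.4% of regions. The part of list length in this order was not tested.

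The share of a library's autosomal peaks that fell in Zfp genes allows for the length of the list. The sham mean was 0.804% ± 0.0152 (SD, n = 3 in each group). Means of 0.839% ± 0.0358 and 0.834% ± 0.00877 belonged to the 10 min and 1 h groups, 0.809% ± 0.0254 to the 6 h group, and 0.802% ± 0.0363 and 0.820% ± 0.0413 to the 24 h and 72 h groups. Over all 18 libraries it ran from 0.762% to 0.877%. At 1 h the 3 libraries, at 0.825%, 0.842% and 0.833%, lay above the 3 of sham, at 0.790%, 0.801% and 0.820%. The exact two-sided permutation test gave p = 0.1 there, the smallest that 3 against 3 allow, and 0.5 after adjustment over the 5 times. The difference from sham was 0.0350 percentage points for the 10 min group and 0.00570 for the 6 h group, with exact permutation p-values of 0.2 and 0.7. The 10 min value was 0.0161 without its replicate 2, 0.0516 without its replicate 3, and 0.00999 with the same number of top-scoring peaks per library. For the 24 h and 72 h groups it was -0.00138 and 0.0161, with exact permutation p-values of 1 and 0.7.

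**Figure D5:**
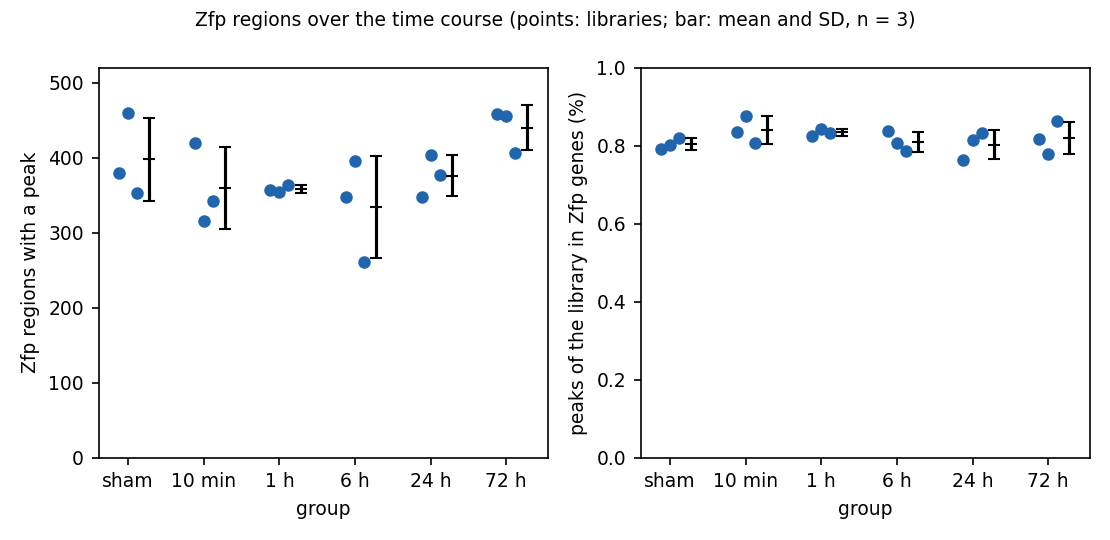
Zfp regions with a peak (left, count) and share of a library's autosomal peaks in Zfp genes (right, percent) by group (x axis). Points are the 3 libraries and the mark beside them is the mean with its SD. The left panel runs from 261 at 6 h to 460 in sham, and the right panel stays between 0.762% and 0.877%.

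Tests over all 6 groups gave no call. The share of variance between groups was 0.255 for the share of peaks, 0.456 for the number of regions and 0.350 for the covered span. A permutation test of the group labels gave p = 0.559, 0.151 and 0.333, or 0.559, 0.452 and 0.499 after Benjamini-Hochberg adjustment over the 3 measures. The 15 MI libraries together differed from sham by 0.0170 percentage points in the share of peaks, with an exact two-sided permutation p of 0.364. In the number of regions they differed by -24.1, with p = 0.472 by the same exact permutation test, and by 7.10 when the second sham library, the one with 460, was left out. With the same number of top-scoring peaks per library the differences were 0.00220 percentage points and -0.267 regions, with exact permutation p-values of 0.923 and 0.974.

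For single regions, a gain was counted where every library of an MI group but no sham library had a peak, and a loss where all 3 sham libraries but none of the MI group had one. At 10 min 4 Zfp regions were gained and 10 lost, or 0.367% and 0.917%, where 0.218% and 0.627% of all 148111 autosomal regions were. The 1 h group had 3 gains (0.275%, against 0.223% of all regions) and 5 losses (0.459%, against 0.55%). The 6 h group had 3 gains (0.275%, against 0.203%) and 9 losses (0.826%, against 0.707%).

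Later, the 24 h group had 3 gains (0.275% of Zfp regions, against 0.394% of all) and 8 losses (0.734%, against 0.524%), and the 72 h group 11 gains (1.01%, against 0.724%) and 7 losses (0.642%, against 0.401%). Zfp regions lay below the background for losses at 1 h and gains at 24 h and above it in the other cases, on counts of 3 to 11. Losses outnumbered gains up to 24 h and gains outnumbered losses at 72 h, as they did among all regions. The counts depended on the peaks used. With the same number of top-scoring peaks taken from each library, the 72 h group had 1 gain and 4 losses and the 10 min group 3 gains and no loss, and the Zfp share was above that of all regions in 2 of the 10 comparisons in place of 8.

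The strongest of these regions were seldom specific to a time. They were chosen by mean score in the MI group for a gain and in sham for a loss. A Zfp423 region in the middle part of the gene (chr8:87858923-87860069) was gained late, in the 24 h and the 72 h group. Its scores were 88.27, 69.45 and 61.28 at 24 h and 65.98, 92.03 and 62.01 at 72 h, a library at 6 h had 55.68, and no sham, 10 min or 1 h library had a peak. The 7 libraries with this peak were thus from 6 h or later, with scores of 55.68 to 92.03 above a floor of 50. Its absence from sham and presence throughout a late group were conditions of the choice. The share of all autosomal regions with this late pattern was not counted. Another Zfp423 region (chr8:87769391-87770658), not among the regions chosen, was lost at 10 min alone, and was listed for 2 of the 6 h libraries and for all 3 of every other group.

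The Zfp652 region over the gene's start (chr11:95748829-95750688), at whose edge the promoter printed above lies, was lost at 24 h. Zfp652 encodes a DNA-binding repressor. Its scores were 78.29, 106.2 and 63.03 in sham, 79.88 and 65.09 in the 10 min group, and 132.82, 107.69 and 89.11 in the 1 h group. The 6 h group had 55.36 and 67.88, the 72 h group 56.8, and the remaining libraries no peak. The highest values were at 1 h, and the 24 h group alone had none. Zfp346, a protein that binds double-stranded RNA, had a region (chr13:55120316-55121697) with scores of 61.07, 90.75 and 119.23 in sham, no peak at 24 h and 3 peaks each at 10 min, 1 h and 72 h.

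Zfp729a, in the chromosome 13 cluster, had a region (chr13:67628067-67630857) without a peak in sham that was gained at 10 min and at 6 h. It scored 67.37, 102.92 and 60.67 at 10 min and 106.65, 80.13 and 67.92 at 6 h, and had 2 libraries with a peak at each other MI time. Zfp850, a cluster gene of chromosome 7, had a region (chr7:27988588-27989832) in no sham library, in 3 of the 1 h and of the 6 h group, and in 2 of each other MI group. Both regions had a peak in 12 of the 15 MI libraries. Their absence from the sham lists was a condition of the choice. The share of all autosomal regions with such a pattern was not counted.

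Zfp395 had a region gained at 1 h, 24 h and 72 h (chr14:65365196-65368333) and a further region lost at 6 h and 72 h (chr14:65390580-65391844) in the same gene. The first was in 11 libraries with a mean score of 69.5 and the second in 9 with 70.1. A Zfp106 region (chr2:120515115-120516509) scored 58.56, 134.48 and 111.32 in sham and had no peak at 10 min, then 2, 2, 2 and 3 libraries at the later times. A region near the start of Zfp385b (chr2:77807125-77808270), in 6 libraries in all, was lost at 10 min, 1 h and 24 h, with 1 library at 6 h and 2 at 72 h. Another region of Zfp385b (chr2:77765181-77765891), not among the regions chosen, was gained at 72 h. Of Zfp385b, Zfp395 and Zfp423, only Zfp395 had a gain and a loss at the same MI time, 72 h.

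The other regions chosen by the rule had between 5 and 9 libraries. Gained ones were in Zfp410 at 10 min (7 libraries), Zfp638 at 1 h (9), Zfp831 at 24 h (9) and Zfp108 at 72 h (5). Lost ones were in Zfp677 at 10 min, 1 h and 72 h (8), Zfp810 at 6 h (9) and Zfp473 at 6 h and 72 h (7). Their mean scores over all libraries with a peak lay between 64.3 for Zfp831 and 79.0 for Zfp677.

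The genes of the silencing machinery with which KRAB zinc finger proteins work, such as Trim28, Setdb1 and the DNA methyltransferases, were described beside them without a test. The 13 autosomal genes on a list of 14 held 49 regions in 12 genes. Peaks covered 1.96% of their span in the mean library (range 0.796% to 3.02%), against 2.33% of other protein-coding span. None of the 49 was in all 18 libraries, where 3.48% of regions at other genes were. Marker genes of cardiomyocytes (Myh6, Myl2, Tnnt2, Actn2 and Ryr2) had 42 regions and 1.31% of their span, and those of leukocytes (Ptprc, Itgam, Csf1r, Lyz2 and Cd68) had 10 regions and 0.515%, with Lyz2 and Cd68 at 0. By group the leukocyte list stood between 0 at 6 h and 1.21% at 1 h and the cardiomyocyte list between 0.861% at 10 min and 2.10% at 72 h, and their part in the group values above was not tested.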

How the data were processed

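MeDIP-seq reads of 18 libraries had been processed by the authors, and Bowtie2, MACS2 and the mm10 build are named in the submitters' processing notes; versions, options, use of an input library and the handling of reads with several matches are not given in the sources used here. Per the file contents, each deposited list gives a peak's position and a score, whose scale is not stated, and peaks were listed per library. Lists were merged at 1 shared base, and gene spans, strands and promoters came from RefSeq on GRCm38.p6, with Python 3.11.15, numpy 2.4.6, pandas 2.3.3 and scipy 1.17.1. Exact permutation tests compared 2 groups, and 100000 draws were used for 6 groups and for paired sign flips; a p of 0.05 was the threshold. The code was tested on simulated data. Named items were a fixed list of known Zfp genes, the 8 genes with most regions, the 6 constant regions with highest score, the 2 gained and 2 lost regions with highest score per time, the largest and extreme clusters and the 3 widest regions. The members and lists were chosen with earlier results of these data known. Protein features were not analysed here, and exons were not used here. Alternatives are given in the closing section.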

Additional observations from a re-analysis of the deposited data

Results flagged for a closer look

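For each library measure, MI times were compared with the mean of the sham libraries. All 3 libraries of the 72 h group exceeded that mean while all 3 of the 1 h group, and all 3 of the 6 h group, fell short of it in the number of Zfp regions with a peak. The 72 h mean was 81.67 regions above the 1 h mean and 105.7 above the 6 h mean. In Zfp gene span under peaks the same held for 72 h and 1 h, whose means differed by 0.601 percentage points. Other protein-coding genes moved alike. Their covered span had means of 2.09% at 1 h and 2.70% at 72 h, against 3.08% and 3.68% for Zfp genes. Of their regions, 27.1% had a peak at 1 h, 25.7% at 6 h and 35.7% at 72 h. For Zfp regions these means were 32.9%, 30.7% and 40.4%. These differences between times were not tested. The share of peaks in Zfp genes, which allows for list length, gave no such pair.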

How the results depend on the processing

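Results were recomputed with 1 choice changed at a time. The excess of covered span in Zfp over other genes, and in clustered over lone Zfp genes, kept its direction and its side of the threshold in all alternatives run. Constant regions fell to 4.04% (other genes 1.39%) when a peak had to cover 50% of a region, and single-library regions rose to 31.7% (other genes 35.6%) with scores of at least 75; with the same number of top-scoring peaks constant regions were 7.39% (other genes 3.14%). The far-end share was 6.17% with 500-base and 19.2% with 5000-base windows. The difference from sham in the share of peaks turned at 24 h to 0.0242 with scores of at least 75 and to 0.00727 with 2000 bases added to genes. At 6 h it turned to -0.0190 with the same number of top-scoring peaks per library (33354). Leaving out 1 library at a time moved it from 0.0161 to 0.0516 at 10 min, from 0.0230 to 0.0380 at 1 h, from -0.0160 to 0.0189 at 24 h, from -0.00761 to 0.0177 at 6 h and from -0.00501 to 0.0362 at 72 h, and moved the MI difference in number of regions from -46.4 to 7.10.

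Gains and losses depended most on the settings. With scores of at least 75 the gains and losses were 1 and 2 (10 min), 2 and 3 (1 h), 2 and 4 (6 h), 0 and 1 (24 h), and 1 and 0 (72 h). With the same number of top-scoring peaks the counts were 3 and 0 (10 min), 0 and 1 (1 h), 5 and 2 (6 h), 1 and 3 (24 h), and 1 and 4 (72 h). With 50% of a region covered, gains at 10 min were 7 and losses at 1 h were 9. Leaving out a library loosens the rule to 2 libraries in its group, and gave 5 to 13 gains and 14 to 26 losses (10 min), 5 to 10 and 9 to 16 (1 h), 3 to 13 and 15 to 27 (6 h), 4 to 16 and 12 to 18 (24 h), and 12 to 30 and 10 to 15 (72 h). The Zfp share of regions called exceeded that of all autosomal regions in 8 of 10 comparisons as reported, 5 of 10 with scores of at least 75 (all regions, 0.0790% to 0.334%), 2 of 10 with the same number of top-scoring peaks (0.256% to 0.344%), 7 of 10 with 50% covered (0.230% to 0.643%) and 36 of 60 with a library left out (0.398% to 2.42%). The causes were not tested.

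Deviations from group means correlated at a mean of 0.00146 for the same replicate number (45 pairs) and -0.000729 for different numbers (90 pairs). No sign of pairing by number was thus seen, which cannot show how the mice were handled. With the number as a replicate block the share of variance between groups was 0.264 for the share of peaks, 0.541 for the number of regions and 0.432 for covered span, with no call. Covering 50% of a region was not run for the share of peaks and the covered span, which are not counted by region.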
